A study of Homo sapiens with 6 samples.

Results

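Box H/ACA small nucleolar RNAs, whose human genes carry symbols that begin with SNORA, were examined in RNA immunoprecipitation sequencing (RIP-seq). The cells overexpressed SNRPD2, the gene that encodes the protein SmD2. Members were all 182 RefSeq genes with such a symbol among 59679 gene entries on build GRCh38, with lengths of 86 to 250 bp and a median of 134 bp. A peak was assigned to a gene when its summit, the position of highest signal, lay within the gene. This gave 158 SNORA peaks among 256139 peaks in all, and within a list no gene held more than 1 of them.

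The samples were HEK293T cells, an established human embryonic kidney line. The 3 samples analysed had the genotype SNRPD2OE, SNRPD2 overexpression, and the 3 samples labelled Ctrl were not analysed here, so no difference between the genotypes was measured. The study's stated purpose was to examine the interaction between SmD2 and pseudouridine, the isomer of uridine. The labels describe total RNA depleted of ribosomal RNA. They name neither the immunoprecipitation step nor the expression construct, so the precipitated protein is not stated. They also do not say whether replicates were separate cultures, so the spread of the replicates may be technical.

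Box H/ACA RNAs fold into a pair of hairpins joined by a hinge, the H box, and end in an ACA trinucleotide just before the 3′ end. Internal loops in the hairpins pair with a target RNA, in most cases ribosomal RNA, and place a uridine in the active site of dyskerin, the pseudouridine synthase encoded by DKC1. Most human members lie in introns of host genes and are released from the spliced intron, while SmD2 belongs to the Sm ring of spliceosomal small nuclear RNAs.

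The lists held 30111, 160931 and 65097 peaks in replicates 1, 2 and 3. Replicate 3 stood apart, with 75.7% of its peaks above 1000 bp in width, where replicate 1 had 2 such peaks and replicate 2 had 0. The number of reads at each summit, and the caller's background there, were recovered from the deposited fold and p-value. Background is given in reads of the RIP library, so that it stands on the scale of the reads at the summit. The deposited fold is the scaled summit signal plus 1 over the scaled background plus 1. It is not a plain ratio of reads, and its scale differs between lists. The highest read number in the lists was 78, 80 and 78, in each case 2 times the narrowest peak width of 39, 40 and 39 bp. A limit on reads at that number, which would draw the read numbers of abundant RNAs together, was not tested, so reads at a summit are not given as levels of an RNA.

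Sequence was in hand for the 5 SNORA genes that overlap an annotated microRNA hairpin, and these are shown because they place peaks on the H/ACA elements. The hairpins are printed 5′ to 3′ in RNA letters from RefSeq, build GRCh38.p14. Capitals mark an ACA that ends 3 nucleotides before the 3′ end of the SNORA gene, and matches to the H box pattern ANANNA that start at nucleotides 50 to 75 of the gene, searched on the RNA strand alone.
SNORA84, hairpin MIR3651 at chr9:92292458-92292547, minus strand: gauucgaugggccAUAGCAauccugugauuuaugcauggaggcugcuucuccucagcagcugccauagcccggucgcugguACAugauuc
SNORA2C, hairpin MIR1291 at chr12:48654444-48654530, minus strand: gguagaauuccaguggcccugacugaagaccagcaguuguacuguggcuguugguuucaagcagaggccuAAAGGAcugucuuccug
SNORA81, hairpin MIR1248 at chr3:186786672-186786777, plus strand: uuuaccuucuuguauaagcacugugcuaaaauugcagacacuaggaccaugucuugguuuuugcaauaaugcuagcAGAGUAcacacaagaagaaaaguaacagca
SNORA36B, hairpin MIR664A at chr1:220200538-220200619, minus strand: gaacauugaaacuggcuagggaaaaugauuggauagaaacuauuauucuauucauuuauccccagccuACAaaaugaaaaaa
SNORA36A, hairpin MIR664B at chrX:154768596-154768656, plus strand: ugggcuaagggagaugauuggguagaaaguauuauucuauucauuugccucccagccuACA

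The ACA was present in 3 of 3 genes whose hairpin reached it, and a match to the H box pattern started in the window in 3 of 3 whose hairpin covered it. The letters ANANNA occur somewhere in 57.7% of the 1562 hairpins in the RefSeq table and ACA in 63.0%. The share with these letters at the positions required here was not counted, so a match is a description only. In SNORA84, hosted by IARS1, a tRNA synthetase gene, the match lay at nucleotides 60 to 65 and the ACA at 128 to 130 of 133. Its only peak, in replicate 3, ran from nucleotide 16 to 123 with the summit at 87, 50 reads and a fold of 11.5. That peak covered the H box match and stopped short of the ACA.

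SNORA2C, in KANSL2, a gene for a subunit of a histone acetyltransferase complex, had its match at nucleotides 59 to 64. Its peak ran from nucleotide 44 to 91 in replicate 2, with 43 reads against a background of 20.8 and a fold of 2.02. In replicate 3 it ran from 17 to 113, with 41 reads against a background of 1.08 and a fold of 8.96. The fold differed between the lists at nearly the same read number. SNORA81, in the translation factor gene EIF4A2, had its match at nucleotides 73 to 78. It had a replicate 3 peak at nucleotides 37 to 87, with 30 reads and a fold of 3.52. SNORA36B had a single read in replicate 3, in a peak of 850 bp, and SNORA36A, in DKC1, had no summit. Reads of these SNORA genes and of the microRNAs they contain cannot be told apart.

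Peak summits fell in SNORA genes in every list. A summit was present in 16 genes in replicate 1, 52 in replicate 2 and 90 in replicate 3, or 8.79%, 28.6% and 49.5% of the 182 genes. Among all genes the shares were 19.1%, 43.1% and 34.7%, but a gene's length sets its chance of holding a summit. Among the 4653 other genes of 86 to 250 bp they were 1.74%, 5.18% and 4.06%. The SNORA share averaged 28.9% ± 20.3 (SD, n = 3 replicates), and it was above that of these other short genes in 3 of 3 replicates. It was not above that of every class of short gene. The 443 tRNA genes, of 70 to 108 bp, had shares of 14.7%, 13.5% and 21.9%, above the SNORA share in replicate 1 and below it in replicates 2 and 3. Without replicate 3, whose wide peaks set it apart, the mean SNORA share was 18.7%.

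Requiring at least 10 reads at the summit left 11, 43 and 74 SNORA genes in replicates 1, 2 and 3, or 6.04%, 23.6% and 40.7%. The same requirement left 0.924%, 1.48% and 1.7% of the other short genes, and 5.69%, 6.52% and 5.94% of all genes. Of the tRNA genes it left 8.58%, 6.77% and 13.8%, again above the SNORA share in replicate 1 only. In any list, 106 SNORA genes (58.2%) held a summit, against 8.04% of other short genes and 49.5% of all genes. In all 3 lists, 9 SNORA genes (4.95%) did, against 0.473% of other short genes and 15.1% of all genes. The 9 genes in all lists were thus a larger share than among other genes of their length and a smaller one than among all genes. The count rested most on replicate 1, since 38 genes were shared by replicates 2 and 3 without it.

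SNORA genes held summits more often than box C/D genes (SNORD), whose RNAs guide ribose methylation with fibrillarin, and less often than the SCARNA genes of Cajal body guides. Of 362 SNORD genes, 1.93%, 5.25% and 6.08% held a summit in replicates 1, 2 and 3, a mean of 4.42% ± 2.19. Median gene lengths were 134 bp for SNORA, 148 bp for SCARNA and 81 bp for SNORD, and the shares were not adjusted for length. The difference, SNORA minus SNORD, was 6.86, 23.3 and 43.4 percentage points, a mean of 24.5 ± 18.3 (SD, n = 3). It was above 0 in 3 of 3 replicates, with an exact two-sided sign-flip permutation p of 0.25, the smallest that 3 replicates allow. Without replicate 3 the mean difference was 15.1 points. It was 11.3 points at a −log10 q of at least 1.3, and 4.50 points where a peak had to cover 50% of the gene. Of 29 SCARNA genes, many of which carry H/ACA hairpins themselves, 34.5%, 58.6% and 72.4% held a summit, a mean of 55.2% ± 19.2. All 3 families kept the order SCARNA, SNORA, SNORD in each replicate, and the SCARNA difference was not tested.

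**Figure D1:**
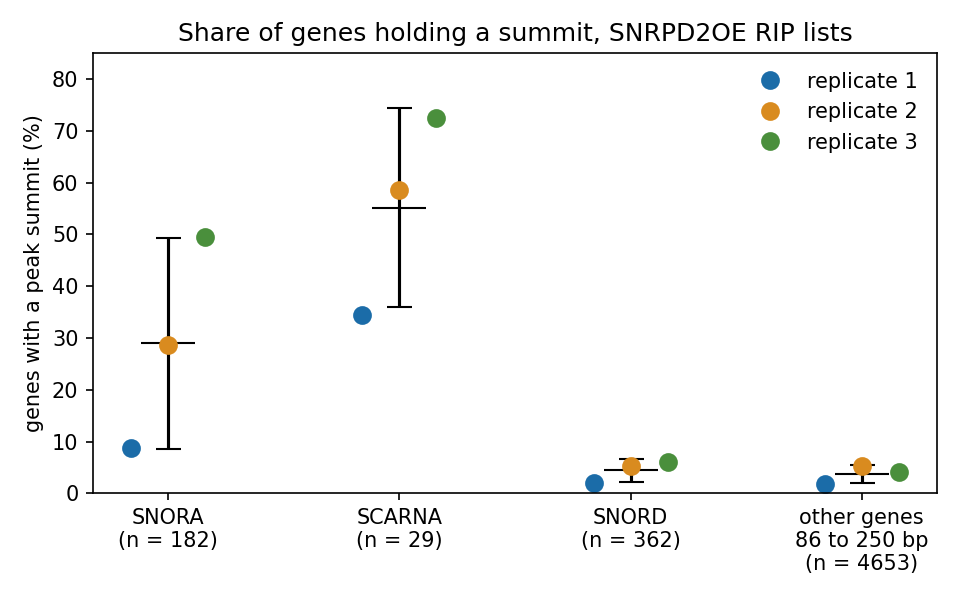
Share of genes holding a peak summit (y axis, percent of genes) in SNORA genes, SCARNA genes, SNORD genes and other genes of 86 to 250 bp; points are the 3 SNRPD2OE replicates, the black dash is their mean and the bar is 1 SD. SNORA genes reached 8.79%, 28.6% and 49.5%, below SCARNA genes and above SNORD genes in every replicate.

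The summits sat on the snoRNA genes themselves and rarely within 1 gene length on either side. In flanks of the same length as each gene, 0, 4 and 4 summits lay on the 2 sides together in replicates 1, 2 and 3, against 16, 52 and 90 inside. The flanking summits with at least 10 reads numbered 0, 3 and 3, against 11, 43 and 74 inside. The whole peak lay within the gene for 16 of 16, 46 of 52 and 71 of 90 SNORA peaks.

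**Figure D2:**
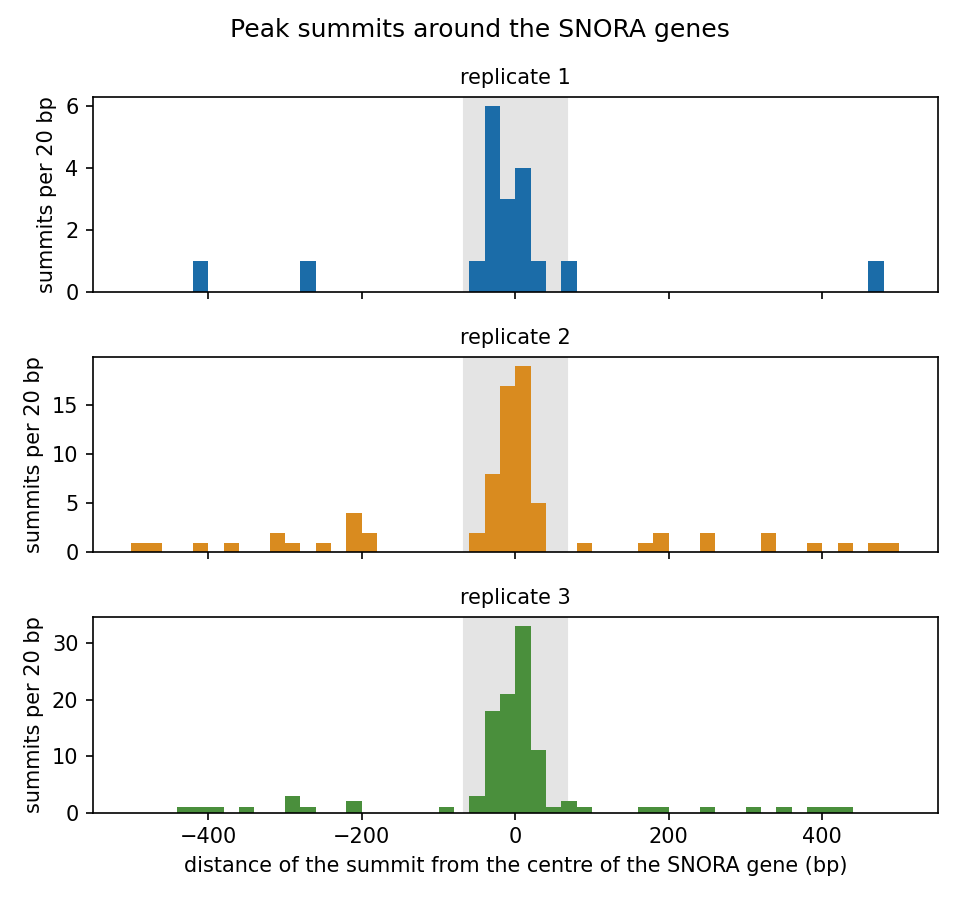
Number of peak summits per 20 bp (y axis) by distance from the centre of each SNORA gene (x axis, bp), 1 panel for each SNRPD2OE replicate. A summit within range of several SNORA genes was counted for each of them. The grey band spans the median gene length of 134 bp. Summits gathered within the band in all 3 replicates. Others lay scattered over the rest of the range, in replicate 2 with up to 77 reads (−219 bp from the centre of SNORA10).

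SNORA peaks carried more reads than most peaks of their lists, which were made mostly of weak peaks. Peaks of 1 read were 0%, 71.4% and 55.0% of all peaks in replicates 1, 2 and 3. A deposited −log10 q of 0 was held by 80.6%, 83.5% and 95.3% of all peaks. It was held by 8 of 16, 21 of 52 and 18 of 90 SNORA peaks. Reads at the SNORA summits had a median of 16 (range 3 to 58) in replicate 1, 39 (1 to 74) in replicate 2 and 34.5 (1 to 69) in replicate 3. At least 10 reads were present in 68.8%, 82.7% and 82.2% of SNORA peaks, against 21.6%, 5.22% and 8.37% of all peaks. Where several read numbers solved a peak the closest was taken, and with the smallest the shares in replicate 1 were 62.5% of SNORA peaks and 18.7% of all peaks. By −log10 p the median SNORA peak stood at the 79.5th, 86.7th and 99.3rd percentile of its list. A deposited −log10 q of at least 1.3 was reached by 4, 12 and 61 SNORA peaks, or 25%, 23.1% and 67.8%, against 4.81%, 3.62% and 1.86% of all peaks.

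The caller's background at these peaks differed between replicates. The median background was 2.58 reads (range 0.0651 to 36.7) in replicate 1, 18.1 (0.0334 to 49.7) in replicate 2 and 0.446 (0.0316 to 19.7) in replicate 3. It was 10 reads or more at 5, 35 and 5 of the SNORA peaks. Median folds were 3.16, 1.94 and 5.34, highest in the replicate with the lowest background. The RNA source of the caller's background is not given in the sources used here, and its part in the number of genes per list was not tested.

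**Figure D3:**
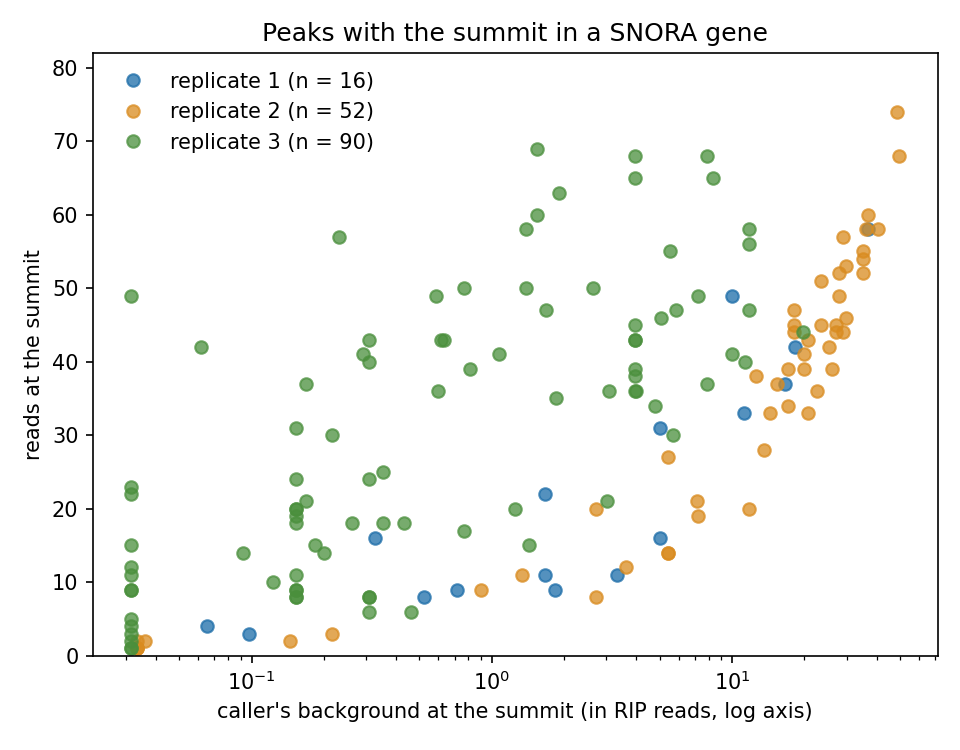
Reads at the summit (y axis) against the caller's background there (x axis, log scale, in reads of the RIP library) for the 16, 52 and 90 SNORA peaks of SNRPD2OE replicates 1, 2 and 3; each point is a peak. Replicate 2 peaks with 30 or more reads all had backgrounds above 10 reads, while replicate 3 peaks with like read numbers spread down to 0.0316.

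Part of the genes were shared between replicates, and sharing by pairs of lists was not counted for other genes. Replicates 1 and 2 shared 10 genes, 62.5% of the genes of replicate 1 and 19.2% of those of replicate 2. Replicates 1 and 3 shared 13, or 81.2% and 14.4%, and replicates 2 and 3 shared 38, or 73.1% and 42.2%. The median distance between the 2 summits was 4.5 bp for replicates 1 and 2, 10 bp for 1 and 3, and 7 bp for 2 and 3. Reads lay within 1.5-fold of each other in 9 of 10, 13 of 13 and 35 of 38 shared genes. Across the 38 genes shared by replicates 2 and 3, Pearson's r of the reads was 0.966 and Spearman's rho was 0.944, given as a description across genes whose points share both libraries. These genes had to be called in both lists, and reads may be limited at 78 to 80, so like read numbers are no measure of how stable an RNA's level was.

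In those 38 genes the median reads were 39 in replicate 2 and 40.5 in replicate 3. The median background was 18.1 in replicate 2 and 0.715 in replicate 3, and it was lower in replicate 3 in 38 of 38 genes. The fold had a median of 2.0 in replicate 2 and 5.72 in replicate 3, and it was higher in replicate 3 in 33 of 38. The fold of a SNORA gene therefore cannot be set side by side between these lists as a level of the RNA.

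The 9 genes with a summit in all 3 lists were SNORA79B, SNORA80E, SNORA74B, SNORA38B, SNORA21B, SNORA11G, SNORA11D, SNORA87 and SNORA116. Their reads lay within 1.5-fold over the lists in 8 of 9, and their summits within 10 bp in 6 of 9. Background was lowest in replicate 3 in 9 of 9 and the fold was highest there in 6 of 9. For 7 of the 9, every summit had at least 10 reads.

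SNORA80E (chr1:155919909-155920042), in the RNA-binding protein gene KHDC4, was the only gene with a −log10 q of at least 1.3 in all 3 lists. It had 49, 38 and 42 reads in replicates 1, 2 and 3, with folds of 4.34, 2.86 and 11.5. Its backgrounds were 10.01, 12.6 and 0.0615 reads. The 3 summits lay within 2 bp, the shortest span among the 9 genes.

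SNORA79B (chr14:20323179-20323326), in the ubiquitin ligase gene CCNB1IP1, had 58, 57 and 57 reads. Its backgrounds were 36.7, 28.9 and 0.231 reads, and its folds 1.56, 1.94 and 14.6. It had the highest SNORA read number of replicate 1 and also the lowest fold there, and the highest SNORA fold of replicate 3.

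SNORA74B (chr5:173020726-173020929), a U19 gene in the proton pump subunit gene ATP6V0E1, had 37, 47 and 43 reads and folds of 2.11, 2.52 and 5.95. SNORA38B (chr17:67740670-67740801), in NOL11, which encodes a nucleolar factor of ribosomal RNA processing, had 42, 33 and 39 reads and folds of 2.18, 1.56 and 9.03. Its summit in replicate 1 lay 30 bp from the one farthest from it. SNORA21B (chr17:38851524-38851658), in the ribosomal protein gene RPL23, had 31, 27 and 21 reads and folds of 4.90, 4.36 and 3.58. It was the only one of the 9 in a ribosomal protein gene, and its fold was lowest in replicate 3.

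SNORA11G (chrX:54927305-54927435) and SNORA11D (chrX:52190622-52190748) belong to a family of copies and lie in TRO and MAGED4, genes of the MAGE group. Other copies lie outside that group, SNORA11F in NUDT13, SNORA11B in DGLUCY and SNORA11C in ZNF157. SNORA11G had 16, 20 and 20 reads with folds of 2.65, 5.66 and 5.85, and SNORA11D had 11, 14 and 15 reads with folds of 3.80, 2.34 and 4.59. SNORA87 (chr10:113045355-113045576), in the Wnt pathway transcription factor gene TCF7L2, had 9, 8 and 8 reads, and its summits lay up to 58 bp apart. SNORA116 (chr6:158322982-158323128), in TULP4, had 4, 2 and 4 reads, and its replicate 3 peak was 5734 bp wide. Counting error alone gives 2 reads an exact 95% Poisson interval of 0.242 to 7.22. These are summits of called peaks and library totals are unknown, so the interval cannot test whether SNORA116 differed between lists.

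**Figure D4:**
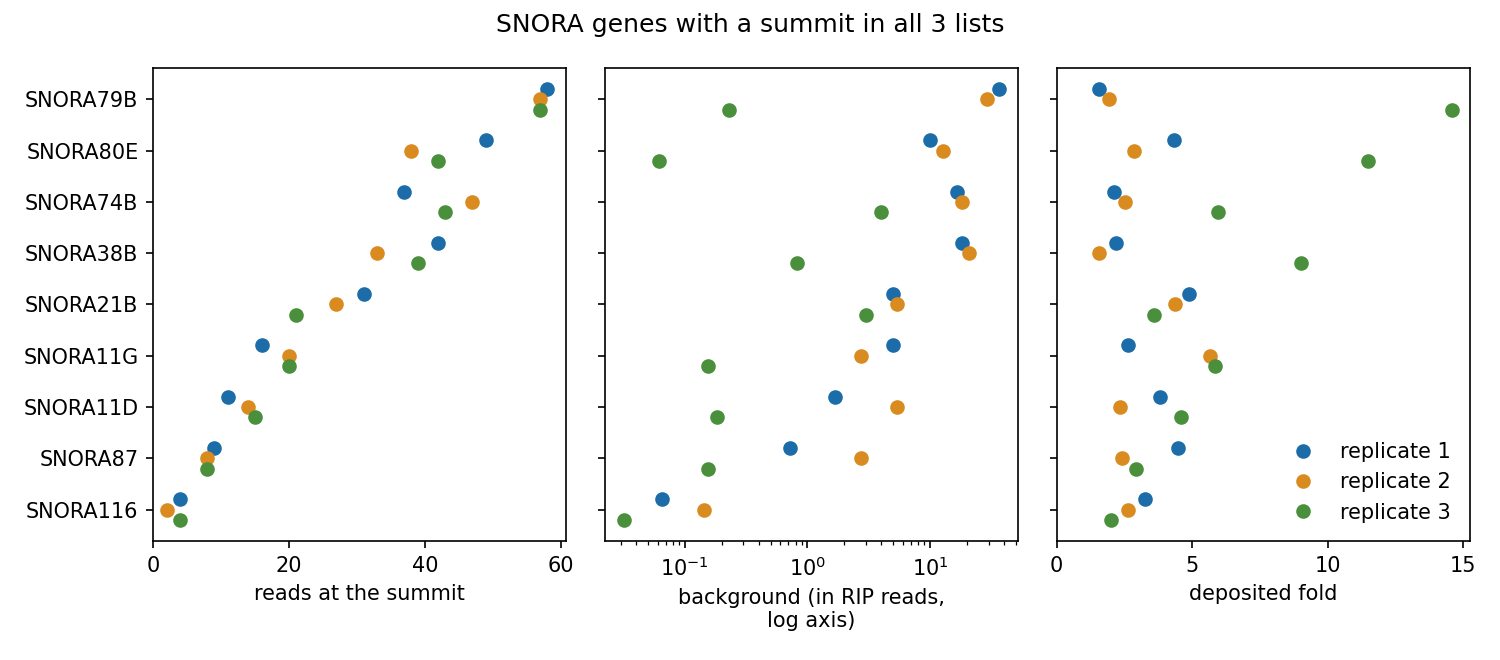
Reads at the summit, the caller's background (log axis, in reads of the RIP library) and the deposited fold (x axes) for the 9 SNORA genes with a summit in all 3 lists (rows); points are SNRPD2OE replicates 1, 2 and 3. Reads ran from 57 to 58 in SNORA79B down to 2 to 4 in SNORA116, while the background was lowest in replicate 3 in every row.

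Replicates differed in which SNORA genes stood highest by −log10 p. In replicate 1 these were SNORA24B in PARP16 (16 reads, fold 8.86), SNORA80E, SNORA47 in ZBED3 (22 reads, fold 7.09), SNORA21B and SNORA87. SNORA24B and SNORA47 were also in replicate 3, with 15 and 24 reads and folds of 4.77 and 6.82, and had no summit in replicate 2. In replicate 2 the highest were SNORA11G, SNORA21B, SNORA80E, SNORA74B and SNORA56, the last with 11 reads and a fold of 5.14. SNORA56 lies in DKC1, the gene of the enzyme that H/ACA RNAs guide, and in replicate 3 it had 18 reads and a fold of 5.22.

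In replicate 3 the highest were SNORA7B, SNORA79B, SNORA80E, SNORA71D and SNORA14B. SNORA7B, in the pseudogene RPL32P3, had 49 reads and a fold of 13.3, in a peak 5126 bp wide. SNORA71D had 69 reads, the most of any SNORA gene in that list, with a fold of 13.3. SNORA14B, in TOMM20, a mitochondrial import receptor gene, had 49 reads and a fold of 11.7 in replicate 3, against 51 reads, a background of 23.5 and a fold of 2.12 in replicate 2. Of the 90 SNORA peaks of replicate 3, 20 were among the 100 highest of the list, against 1 of 16 in replicate 1 and 0 of 52 in replicate 2.

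Most SNORA genes with a summit had it in a single list, 63 of 106. The same split was not made for other genes, so it is not given as a trait of SNORA genes. A summit in any list and in all 3 was held by 374 and 22 other short genes, and by 29550 and 9030 of all genes. For SNORA genes these counts were 106 and 9. Replicate 3 alone held 48 SNORA genes, replicate 2 alone 13 and replicate 1 alone 2. The 48 had a median of 27.5 reads, a median background of 0.446 reads and a median fold of 5.11, and 39 of them had at least 10 reads. Examples with high reads were SNORA16A and SNORA44 in SNHG12 (68 and 65 reads), SNORA71A in SNHG17 (68 reads) and SNORA7A in RPL32 (65 reads). Wide peaks gave few of the reads: 15 of the 90 replicate 3 peaks were over 1000 bp, with a median of 9 reads, against 37 in the other 75.

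The 13 genes of replicate 2 alone had a median of 45 reads, a median background of 22.6 reads and a median fold of 1.88. Of these, 6 lie in ribosomal protein genes: SNORA62, SNORA65, SNORA10, SNORA64, SNORA21 and SNORA70. SNORA64 and SNORA10, both in RPS2, had 68 and 60 reads against backgrounds of 49.7 and 37.0. SNORA48, in the translation initiation helicase gene EIF4A1, had 74 reads, the most of any SNORA peak, against a background of 48.8 and with a fold of 1.51. High reads in these genes thus stood on high backgrounds.

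Where several genes contained a member, a protein-coding host was preferred to a long noncoding one. By this rule long noncoding RNA genes carried 20 SNORA genes, of which 16 held a summit in any list, with a mean share over replicates of 36.7% ± 32.5. Many of these hosts are small nucleolar RNA host genes (SNHG), whose spliced exons have no long coding frame. A further 16 members lay in a long noncoding RNA gene that overlaps a protein-coding host, such as SNORA74A in SNHG4. Counting these, 26 of 36 held a summit, with a mean share of 33.3% ± 30.6. Ribosomal protein genes carried 18, of which 12 held a summit, with a mean share of 27.8% ± 20.03. Other protein-coding genes carried 126, of which 72 held one, with a mean of 29.9% ± 20.7. The 18 genes with no protein-coding or long noncoding host had a mean of 14.8% ± 11.6, with 6 in any list. The ranges of the replicate shares overlapped between all of these classes.

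In replicates 2 and 3, members in ribosomal protein genes had the highest median backgrounds of the host classes. In replicate 2 their median was 50 reads against a background of 32.5, and in replicate 3 it was 42 reads against 7.76. Members in long noncoding RNA genes had medians of 39 reads against 19.9 in replicate 2 and 40.5 reads against 1.15 in replicate 3. Ribosomal protein genes were also the only class with more summits in replicate 2 (8) than in replicate 3 (6). Host genes are transcribed at different rates, and the part of host RNA in these peaks was not tested.

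For a count of hosts, a pseudogene that contained a SNORA gene with no other host was included as well. Of these 139 hosts, 23 carried 2 or more SNORA genes, among them the pseudogene CCT6P3 with a summit in 2 of 2. Summits fell in 2 or more of the members for 13 of these hosts, in every member for 10 and in none for 2, CCT6A and RCC1. SNHG12 had summits in 3 of 3 members, SNORA61, SNORA44 and SNORA16A, and SNHG17 in 4 of 4, SNORA71A, SNORA71B, SNORA71C and SNORA71D, the last of which the rule gave to LOC124904958. EIF4A2 had them in 3 of 4, SNORA63, SNORA81 and SNORA4, with 55, 30 and 34 reads in replicate 3. TAF1D, a gene for an RNA polymerase I factor, had them in 3 of 6, SNORA1, SNORA8 and SNORA18, with 17, 43 and 36 reads, all in replicate 3.

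Hosts with a summit in a SNORA gene of the same list were next compared over all their peaks. Each host entered through its SNORA peak, so the shares do not describe SNORA hosts in general. The SNORA gene was the site of the host's strongest peak by −log10 p in 14 of 15 such hosts in replicate 1, 28 of 46 in replicate 2 and 66 of 72 in replicate 3. Hosts with a single peak had it at the SNORA gene by construction. Among those with more than 1 peak, the strongest was at the SNORA gene in 5 of 6, 21 of 39 and 50 of 56. In replicate 2 the strongest peak thus lay elsewhere in the host in nearly as many cases as at the snoRNA.

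Families of similar copies differed in how many members held a summit. Against 58.2% of all SNORA genes, all 7 SNORA11 genes did, with 3, 5 and 6 in replicates 1, 2 and 3, as did all 5 SNORA80 genes (1, 2 and 5) and all 5 SNORA71 genes (0, 2 and 4). Of the SNORA11 genes, SNORA11C had 1 read in each of its 2 lists, and SNORA11B was held by a replicate 3 peak 63110 bp wide. SNORA74 had 4 of 5 and SNORA63 4 of 5, while SNORA70 had 1 of 10 and SNORA40 0 of 3. SNORA80 members lie in unrelated hosts, KHDC4, ODC1, AIMP2 and URB1 among them, and in replicate 3 SNORA80E, SNORA80B, SNORA80D and SNORA80A had 42, 50, 40 and 37 reads. How reads that align to several copies were placed is not given in the sources used here, so counts of copies are uncertain.

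Members with higher family numbers had few reads, a split made after the values were seen. Of 34 genes numbered 86 to 120, 8 (23.5%) held a summit, with at least 10 reads in 0, 1 and 2 of them in replicates 1, 2 and 3. Of 148 genes numbered 1 to 84, 98 (66.2%) held one, with at least 10 reads in 11, 42 and 72. SNORA101B, in RALGAPA1, stood out among the higher numbers, with 28 reads in replicate 2 and 31 in replicate 3.

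No summit in any list was found for 76 SNORA genes (41.8%). Of these, 63 were not touched by any peak, and 13 lay under a replicate 3 peak wider than 1000 bp whose summit was elsewhere. Among the 76 were SNORA73A and SNORA73B in RCC1, the U17 RNAs that act in cleavage of the ribosomal RNA precursor and are not known to guide pseudouridylation. SNORA13, SNORA31, SNORA33, SNORA53, SNORA67, SNORA68, SNORA69 and SNORA72 were also without one. Absence from a peak list holds for the listed peaks only and does not show that the RNA was absent.

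Where the host's strand was known, the summit could be placed along the RNA. Counted from the 5′ end, the median summit lay at 45.3% of the gene length in replicate 1 (n = 10), 42.9% in replicate 2 (n = 41) and 39.2% in replicate 3 (n = 69), a mean of 42.5% ± 3.04. Summits 3′ of the midpoint numbered 4 of 10, 12 of 41 and 14 of 69. In genes contained by a single host they numbered 4 of 10, 11 of 35 and 14 of 61. The middle 50% of the gene held 90.0%, 92.7% and 92.8% of the summits. The peaks covered a median of 36.3%, 43.0% and 73.1% of the gene. In each replicate most of these summits therefore lay 5′ of the midpoint, 6 of 10 in replicate 1, and away from both ends. The genes were chosen by a summit inside them, and peaks were at least 39, 40 and 39 bp wide. Summits in other short genes were not placed in this way. What gene length and peak width add to these positions was not tested.

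**Figure D5:**
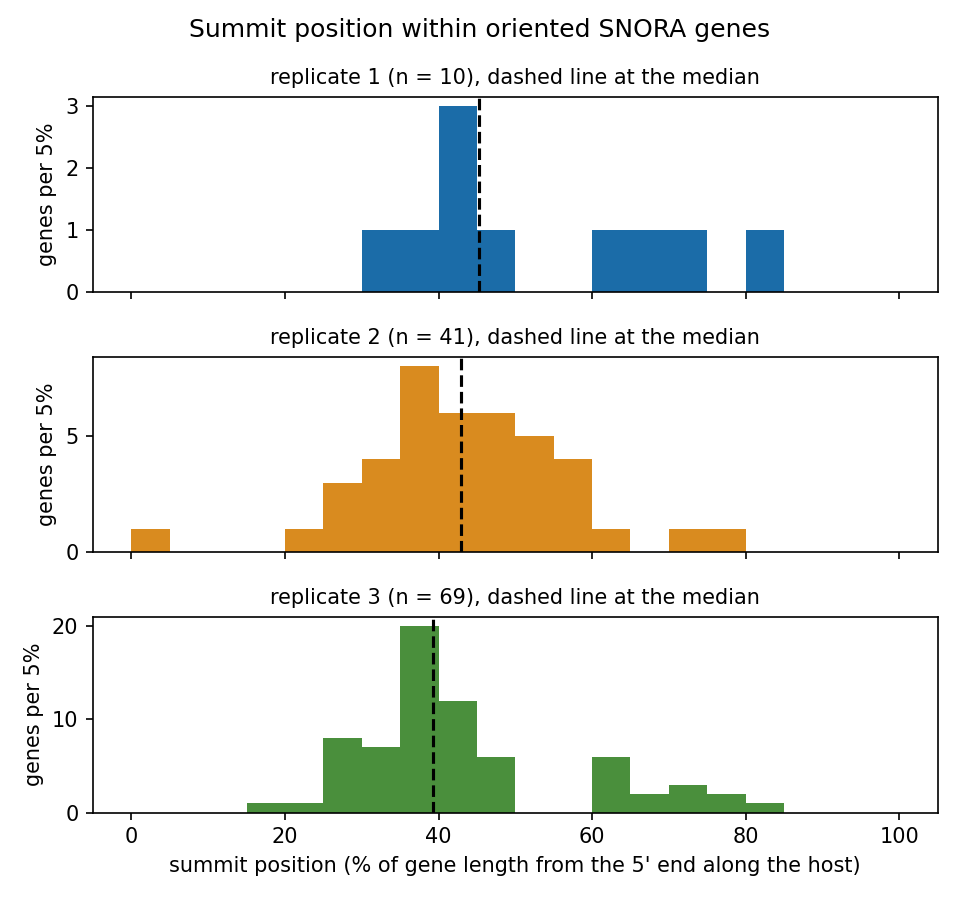
Number of SNORA genes per 5% of gene length (y axis) by the position of the summit from the 5′ end along the host (x axis, percent of gene length), for the 10, 41 and 69 oriented genes of SNRPD2OE replicates 1, 2 and 3. Dashed lines mark the medians at 45.3%, 42.9% and 39.2%.

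Genes for the H/ACA particle held summits as well. Of DKC1, NOP10, NHP2, GAR1, NAF1, SHQ1, RUVBL1, RUVBL2 and TERC, 8 of 9 had a summit in any list and 4 in all 3, DKC1, SHQ1, RUVBL1 and RUVBL2, against 49.5% and 15.1% of all genes of any length. SHQ1 and RUVBL1 span 123174 and 89130 bp, and of other genes within 2-fold of their lengths 50.5% and 47.8% had a summit in all 3 lists. For RUVBL2 and DKC1, of 22548 and 14826 bp, these shares were 24.8% and 17.1%. In any list, the share of genes within 2-fold of the length was 57.8% to 96.2% for GAR1, DKC1, RUVBL2, NAF1, RUVBL1 and SHQ1. For NOP10, NHP2 and TERC it was 26.1%, 44.0% and 15.7%. DKC1 had folds of 4.27, 5.14 and 5.22 with 9, 11 and 18 reads, and its strongest peak in replicates 2 and 3 was the one at SNORA56. RUVBL2, an ATPase of the assembly machinery, had 40, 43 and 16 reads and folds of 6.24, 3.45 and 2.53. RUVBL1, its partner, had 14, 19 and 12 reads.

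SHQ1, the dyskerin chaperone, had 10, 2 and 7 reads. NAF1, an assembly factor, had 11 reads in replicate 2 and 2 reads in replicate 3, and NHP2, a core protein, had 37 reads in replicate 3. GAR1, also a core protein, had 1 read in replicate 2 and 8 in replicate 3, in a peak 37219 bp wide. NOP10, the smallest core protein, had no summit. TERC, the telomerase RNA with an H/ACA domain, had 68 reads in replicate 2 against a background of 41.5, with a fold of 1.62, and no summit in replicates 1 and 3.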

How the data were processed

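RIP-seq peak lists of 3 SNRPD2OE samples of HEK293T were used, grouped by genotype per the labels; 3 Ctrl samples were not analysed here. The submitters' processing notes name MACS2 2.2.9.1, STAR 2.7.10b, cutadapt 4.2 and GRCh38. The caller's settings, the background library and the use of strand were not given in the sources used here. Each of the authors' deposited scores is the whole part of 10 times the −log10 p; scores were not used further. The deposited fold is the authors' own, as are the deposited −log10 p-value and q-value, and all served to describe or rank peaks of 1 list.

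Reads at a summit were recovered as the whole number whose Poisson −log10 p matched the deposited one to 0.002, with 1 read worth 0.599, 1 and 0.254 units of scaled pileup in replicates 1, 2 and 3. All peaks but 1 in replicate 3 were solved, and the closest match was taken where several fitted. Backgrounds were divided by the same value. Library totals are unknown, so the reads at each summit set its precision.

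Genes came from a RefSeq table of GRCh38.p14 with whole gene spans and no strand. Hosts were genes containing a SNORA gene, chosen without strand, contrary to the plan, with protein-coding before long noncoding genes and then the shortest. Where neither kind contained the SNORA gene, a containing pseudogene entered the count of hosts but not the host classes. Positions run along the host's strand, known for 133 of 182 genes. In all 5 genes with a microRNA hairpin, SNORA and host shared the strand.

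Named genes were those with a summit in all 3 lists, the 5 highest by −log10 p per list, copy families and 9 particle genes; others were named after their values were seen. A gene's value is that of its peak with the highest −log10 p. Members and lists were chosen with earlier results of these data known. Shares were compared by an exact sign-flip permutation test over replicates. Alternatives were a −log10 q of at least 1.3, a width limit of 1000 bp, a minimum of 10 reads, lists of equal length, overlap of 1 bp, coverage of 50% of the gene, no pseudogenes, and leaving out each replicate. Added after seeing the data were genes with 1 host only, any containing long noncoding RNA gene, and the smallest read number that solves a peak. Read recovery was tested on simulated data. Python 3.11.15, pandas 2.3.3, numpy 2.4.6, scipy 1.17.1 and matplotlib 3.10.9 were used.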

Additional observations from a re-analysis of the deposited data

How the results depend on the processing

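The share of SNORA genes with a summit, mean 28.9%, ranged from 14.1% to 39.0% over 10 alternatives, with 18.7% to 39.0% when 1 replicate was left out, within 1 SD of the main value. The SNORA minus SNORD difference was above 0 under all 10, from 4.50 to 33.3 points, and from 15.1 to 33.3 without 1 replicate. The count of 9 genes in all lists was 1 at a −log10 q of at least 1.3, 5 in lists of equal length and 1 when a peak had to cover 50% of the gene. Without replicate 1 it was 38, and it ranged from 10 to 38 when 1 replicate was left out, since fewer lists then had to hold the gene. At most 1000 bp it was 8 and with at least 10 reads it was 7, all among the 9. The mean summit position of 42.5% was 39.3% at a −log10 q of at least 1.3, and the cause was not tested. In genes with 1 host only it was 41.9%, without 1 replicate 41.1% to 44.1%, and the mean gene coverage of 50.8% was 39.6% to 58.0%. No gene was annotated as a pseudogene, so leaving pseudogenes out changed nothing. No paired analysis was possible because the Ctrl samples were not analysed here, as far as the genotypes go; SNORA and SNORD shares were compared within each replicate. Members in a long noncoding RNA gene with a summit numbered 26, in place of 16, where overlapping protein-coding hosts were not preferred. With the smallest read number that solves a peak, 10, 43 and 74 SNORA peaks had at least 10 reads, in place of 11, 43 and 74. Peaks of 1 to 3 reads, as in SNORA116, limit what can be said of single genes.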
